A study of Mus musculus with 15 samples.

Results

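The genes described are the carriers that move organic anions, organic cations, drugs and their conjugates across kidney cells, taken as every symbol in the deposited tables that starts with Slc22a, Slc47a, Slco, Abcc, Abcb1 or Abcg2. This rule uses names only and gave 58 of 23393 genes: 26 Slc22a, 15 Slco, 10 Abcc, 2 Slc47a, 4 with the prefix Abcb1, and Abcg2. The prefix Abcb1 took, beside the P-glycoprotein genes Abcb1a and Abcb1b, also Abcb10, a transporter of the inner mitochondrial membrane, and Abcb11, the bile salt export pump. Abcc8 and Abcc9 are also no drug carriers but the sulfonylurea receptor subunits of ATP-sensitive potassium channels.

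Polyadenylated RNA of whole kidneys from C57BL/6 mice was sequenced in 15 libraries. The knockout mice were ERRg fl/fl;Sim1-Cre, with floxed alleles of Esrrg, the gene of the nuclear receptor ERRγ, and a Cre transgene, and their control littermates were ERRg fl/fl without Cre, so both genotypes carried the floxed alleles. The labels give 3 knockout and 3 control males at 3 months of age, 2 knockout and 2 control females at 3 weeks, and 3 knockout and 2 control males at 3 weeks. The kidney cells in which this Cre acts were not given in the sources used here. For each combination of sex and age the files hold 1 comparison of the genotypes. It consists of a mean normalised read count over both genotypes, a log2 fold change and the authors' standard error (SE), and holds no value per library.

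In the proximal tubule, organic anions and cations enter the cell from the blood side through SLC22 carriers and leave into the urine through SLC47 exchangers and ABC pumps. Some SLC22 carriers run the other way and bring urate or carnitine back from the urine, and the organic anion transporting polypeptides of the SLCO family carry steroid conjugates, prostaglandins and thyroid hormones. Several of these carriers are known to differ between male and female mouse kidneys and to appear only as the kidney matures.

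No header says which genotype is the numerator. Fold changes were read as knockout over control because the series title ties ERRγ to reabsorption and the proximal tubule markers have negative medians in all 3 tables. A lower level of proximal transporters is thus part of this reading and no independent evidence of it. Were the numerator the control, every direction below would swap. Esrrg itself was at -0.87 ± 0.57 (SE, no p-value) in the authors' deposited table of 3-month males, and the authors' deposited tables gave 1.04 ± 0.17 (adjusted p = 1.7e-08) in 3-week females and 0.82 ± 0.20 (adjusted p = 0.000613) in 3-week males. On their face the 3-week values go against the labels as read; which exon is floxed was not given in the sources used here. Esrrg therefore checks neither the deletion nor the labels, and "knockout" below means the kidneys labelled knockout. The summed mean normalised counts, in units of 1e6, were 18.8 in the table of 3-month males, 33.9 in that of 3-week females and 47.5 in that of 3-week males. The steps in which the lowest means move fitted 5, 4 and 4 libraries in the same order, fewer than labelled in both tables of males. Of these steps, 2 had a positive and 3 a negative fold change in 3-month males. In 3-week females and in 3-week males there were 2 of each sign. With fold changes read as knockout over control, positive steps stand for knockout libraries. On that reading only 2 of the 3 labelled knockout libraries were fitted in 3-month males, and likewise in 3-week males. In the 3 libraries labelled 3-month knockout 1 label field says female and the others say male; that table had a mean of 11.9 for Xist and 1477 for Ddx3y in the authors' deposited table, and the libraries are called male here.

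At 3 months the anion carrier Slc22a7, the carnitine carrier Slc22a5 and the urate and drug pump Abcg2 were among the genes that fell in the knockout males, and the conjugate pump Abcc3 was among those that rose. Of the 58 genes, 26 had an adjusted p-value in the authors' deposited table of 3-month males, 19 had the status Outlier, which gives a fold change without a p-value, and 13 had the status Low, with means under 10 and no adjusted p-value. Of those 26, 18 passed an adjusted p of 0.05, 7 higher and 11 lower, in a table in which 57.5% of all 12828 tested genes passed, 29.8% higher and 27.8% lower. The median of the 26 was -0.30 on the log2 scale, against 0.01 over all tested genes. Of the 19 outlier genes, 18 had a fold change below 0, from -5.80 to 0.88 with a median of -2.02, and outliers made up 42.2% of the transporter genes above the low limit, against 10.6% of all genes. The strongest carriers of the proximal tubule are among them, so the p-values at 3 months cover the family only in part. If libraries are scaled by their total count instead of DESeq2's size factors, every log2 fold change at 3 months moves up by 0.49, and the split of called transporter genes becomes 10 higher and 9 lower, while that of all called genes goes to 84.0% higher, against 51.7%.

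At 3 weeks all called transporter genes were lower in the knockouts. In 3-week females 33 had an adjusted p-value, 13 were outliers and 12 low; 12 passed, 0 higher and 12 lower, where 18.7% of all 14146 tested genes passed, 8.29% higher and 10.4% lower. In 3-week males 45 had an adjusted p-value, 1 was an outlier and 12 were low; 15 passed, 0 higher and 15 lower, where 17.3% of all 14657 tested genes passed, 8.81% higher and 8.52% lower. The medians of the tested transporter genes were -0.31 in females and -0.28 in males, against 0.01 and -0.01 over all tested genes. Scaling by total count moves the fold changes up by 0.15 in females and 0.18 in males, and the splits become 2 higher and 10 lower in females and 3 higher and 9 lower in males; over all genes called, 74.0% and 75.2% were then higher, against 44.2% and 50.8%. Over the 3 tables, 46 of the 58 genes had an adjusted p-value at least once, 29 of these passed at least once, where 58.2% of all genes tested at least once did. Of the 21 tested in all 3 tables, 2, Slc22a5 and Slc22a7, passed in all 3, where 8.39% of all such genes did, so both counts lie near the share over all genes.

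**Figure D1:**
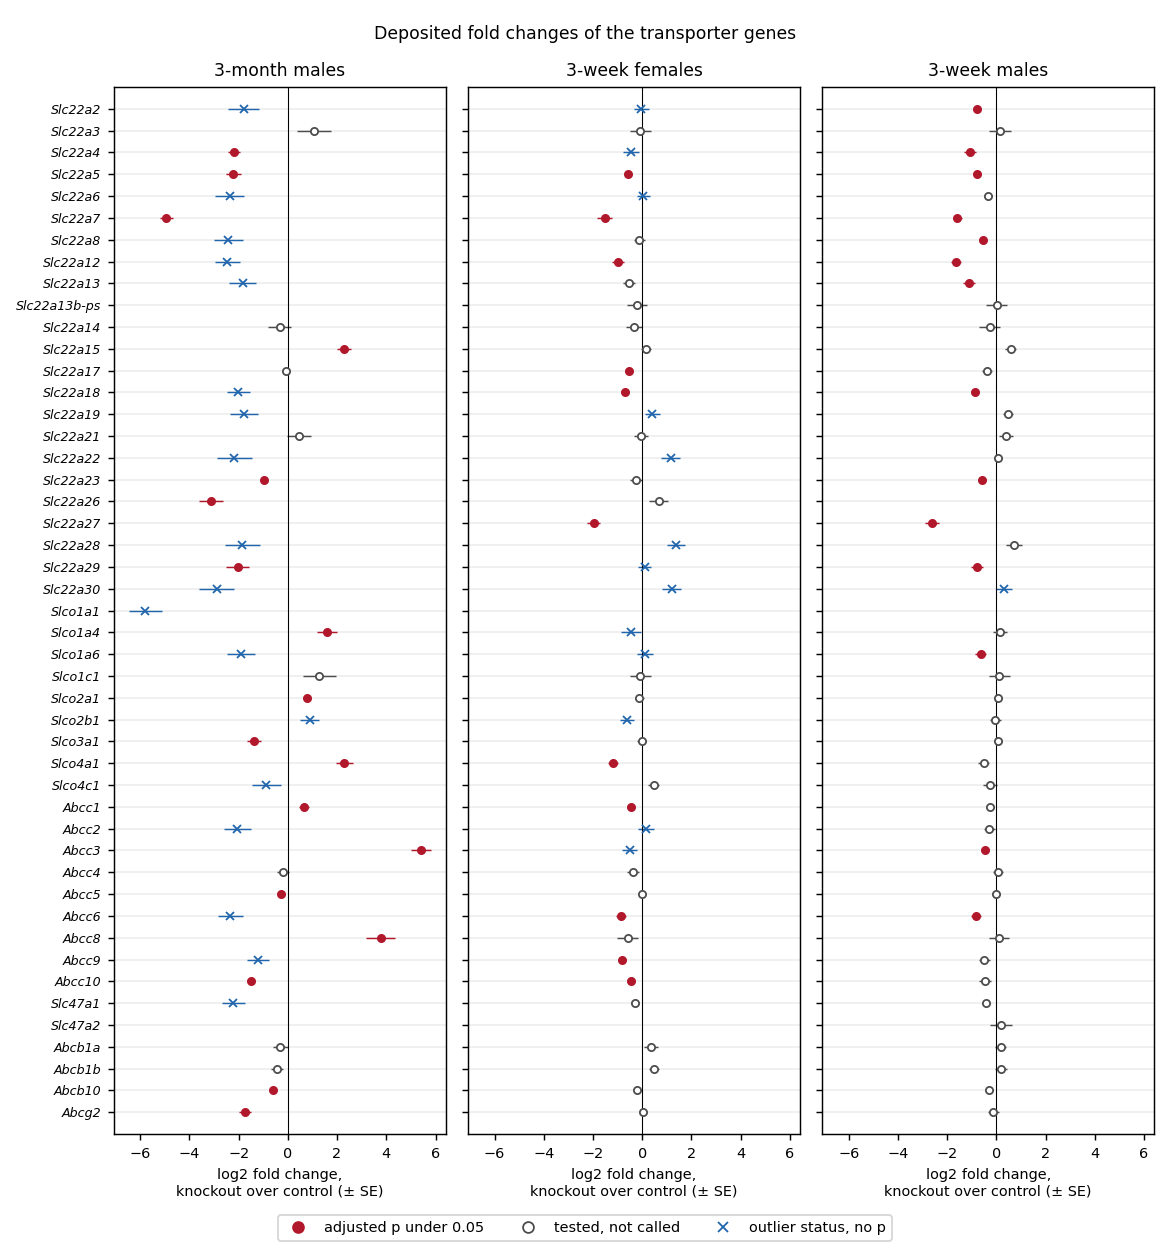
Log2 fold change, knockout over control, with the authors' standard error (bars) for the transporter genes with a mean over 10 in at least 1 table, 1 of them not shown, in 3-month males, 3-week females and 3-week males from left to right. Filled points passed an adjusted p of 0.05, open points were tested and did not pass, and crosses are outliers without a p-value. The called genes reach from -4.95 (Slc22a7) to 5.40 (Abcc3) at 3 months and lie below 0 at 3 weeks.

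Where the knockout RNA is lower, fewer cells of a type and less RNA per cell cannot be told apart in whole kidney. All 10 proximal tubule markers were below 0 in each of the authors' deposited tables. Their medians were -2.59 in 3-month males, -0.49 in 3-week females and -1.02 in 3-week males. In 3-month males only 3 of the 10 were tested and 7 were outliers, the lowest of the range among them. Of the transporter genes with a mean over 10, 25 of 45 in 3-month males lay inside the range of those markers, which ran from -4.44 to -0.77, 18 lay above it, and 2, Slc22a7 and Slco1a1, lay below it. In 3-week females 24 of 46 lay inside the range, from -2.72 to -0.13, and 22 above it. In 3-week males 20 of 46 lay inside the range, from -3.15 to -0.37, and 26 above it. The part of proximal cell number in the values below was not tested.

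The promoters of the transporter genes were searched for the ERR element, since ERRγ binds it. RefSeq promoters, 56 in number, were at hand for 47 of the 58 genes, in the build GRCm38.p6. The long spelling TNAAGGTCA, read on both strands in the 250 bases before the start, occurs in 1 of these 56 promoters, that of Abcc10. It occurs in 1.14% of all 32851 promoters. The short spelling AAGGTCA, which the long one contains, occurs in 4 of the 56, those of Abcg2, Abcc2, Abcc10 and Slco1a1, and in 4.08% of all promoters. The 4 promoters with a match are printed 5′ to 3′ on the gene's strand with the match in capitals, because these genes recur below: Abcg2 (chr6:58584283-58584532, plus strand), Slco1a1 (chr6:141946963-141947212, minus strand), Abcc10 (chr17:46325767-46326016, minus strand, match on the opposite strand) and Abcc2 (chr19:43782058-43782307, plus strand).
Abcg2: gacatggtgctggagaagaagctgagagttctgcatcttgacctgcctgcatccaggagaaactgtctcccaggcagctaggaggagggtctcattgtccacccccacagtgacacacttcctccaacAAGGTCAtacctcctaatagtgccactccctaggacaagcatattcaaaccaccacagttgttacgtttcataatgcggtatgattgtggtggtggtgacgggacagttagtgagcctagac
Slco1a1: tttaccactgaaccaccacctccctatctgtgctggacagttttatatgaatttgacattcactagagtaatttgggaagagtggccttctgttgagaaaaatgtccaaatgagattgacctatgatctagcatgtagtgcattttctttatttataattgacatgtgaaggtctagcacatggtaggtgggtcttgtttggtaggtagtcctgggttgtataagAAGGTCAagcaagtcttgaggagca
Abcc10: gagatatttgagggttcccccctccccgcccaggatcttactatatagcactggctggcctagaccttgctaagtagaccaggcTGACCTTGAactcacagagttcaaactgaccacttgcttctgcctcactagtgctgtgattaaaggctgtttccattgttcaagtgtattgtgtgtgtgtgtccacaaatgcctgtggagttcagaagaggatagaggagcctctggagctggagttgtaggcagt
Abcc2: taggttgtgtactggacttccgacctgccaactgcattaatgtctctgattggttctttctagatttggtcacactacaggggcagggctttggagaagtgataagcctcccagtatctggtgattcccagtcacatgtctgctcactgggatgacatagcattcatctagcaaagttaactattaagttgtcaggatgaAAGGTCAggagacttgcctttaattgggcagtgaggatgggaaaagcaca
Counted from the RefSeq start, the match lies from -122 to -116 in Abcg2, from -25 to -19 in Slco1a1, from -166 to -158 in Abcc10 and from -50 to -44 in Abcc2. By the GENCODE annotation Abcc10 spans 46303221 to 46328352, so its printed stretch and match lie inside the gene. Abcc2 begins there at 43782192, so its match lies past that start. At 3 months Abcg2 and Abcc10 fell, and Slco1a1 and Abcc2 were outliers below 0. Of the 45 transporter genes above the low limit, 34 were below 0 there, so this direction is not particular to the genes with a match. A match of letters is a description and says nothing of binding.

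Among the carriers of organic anions, Slc22a7 had the lowest tested value in 3-month males. Slc22a7 (OAT2, on chromosome 17 from 46432183 to 46438457 in GRCm38) carries small anions and nucleotides, and its knockout level at 3 months was 30.9-fold lower. The authors' deposited table of 3-month males put its mean at 2059 and its log2 fold change at -4.95 ± 0.27 (SE, adjusted p = 1.01e-73), and only 3 of 12828 tested genes had a lower value there. In 3-week females it was at -1.52 ± 0.30 (adjusted p = 1.13e-05) and in 3-week males at -1.59 ± 0.17 (adjusted p = 1.07e-17) in the authors' deposited tables. Slc22a7 was therefore lower in the knockouts in all 3 comparisons.

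Slc22a6 (OAT1) and Slc22a8 (OAT3), the main entry routes for drugs such as penicillins and diuretics, were far more abundant. Slc22a6 had a mean of 22562 and was at -2.37 ± 0.58 (SE, outlier) in the authors' deposited table of 3-month males, at 0.05 ± 0.28 (outlier) in that of 3-week females and at -0.34 ± 0.17 (adjusted p = 0.15) in that of 3-week males. Slc22a8, its neighbour, had a mean of 16195 and was at -2.43 ± 0.59 (outlier), -0.11 ± 0.24 (adjusted p = 0.809) and -0.53 ± 0.16 (adjusted p = 0.00947) in the authors' deposited tables, in the same order. Of this pair, only the fall of Slc22a8 in 3-week males passed the test, and it did not under total-count scaling (adjusted p = 0.116). Slco4c1, which carries digoxin and thyroid hormone on the blood side, was at -0.88 ± 0.58 (outlier), 0.47 ± 0.23 (adjusted p = 0.143) and -0.26 ± 0.29 (adjusted p = 0.64) in the authors' deposited tables.

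Slc22a2 (OCT2) and Slc22a3 (OCT3) are cation carriers that take up metformin and monoamines on the blood side. Slc22a2 fell in 3-week males, at -0.80 ± 0.17 (SE, adjusted p = 3.48e-05), and was at -0.03 ± 0.31 (outlier) in 3-week females and -1.80 ± 0.64 (outlier) in 3-month males, in the authors' deposited tables. Slc22a3, a rare transcript in these kidneys with a mean of 26.6 at 3 months, was at 1.06 ± 0.68 (adjusted p = 0.17) in the authors' deposited table of 3-month males. The authors' deposited tables put it at -0.07 ± 0.42 (adjusted p = 0.937) in 3-week females and 0.14 ± 0.44 (adjusted p = 0.895) in 3-week males.

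On the urine side, Abcg2 fell at 3 months. Abcg2 (BCRP) pumps urate, sulfate conjugates and many drugs, and with a mean of 10633 it was 3.36-fold lower, at -1.75 ± 0.24 (SE, adjusted p = 4.52e-12) in the authors' deposited table of 3-month males. At 3 weeks the authors' deposited tables gave it 0.05 ± 0.16 (adjusted p = 0.874) in females and -0.13 ± 0.21 (adjusted p = 0.782) in males. Slc47a1 (MATE1), the proton exchanger that releases metformin and other cations, was at -2.22 ± 0.47 (outlier, mean 10899), -0.31 ± 0.14 (adjusted p = 0.115) and -0.42 ± 0.18 (adjusted p = 0.0836) in 3-month males, 3-week females and 3-week males by the authors' deposited tables. Slc47a2, its neighbour, had means of 5.50, 6.66 and 12.6 in the authors' deposited tables and was tested in 3-week males alone, at 0.19 ± 0.44 (adjusted p = 0.844).

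Of the other pumps of the urine side, Abcc2, Abcc4, Abcb1a and Abcb1b passed in no table. Abcc2 (MRP2) was at -2.05 ± 0.54 (outlier, mean 9212), 0.17 ± 0.33 (outlier) and -0.28 ± 0.22 (adjusted p = 0.44) in the authors' deposited tables of 3-month males, 3-week females and 3-week males. Abcc4 (MRP4), a pump of cyclic nucleotides and urate, was at -0.21 ± 0.25, -0.38 ± 0.23 and 0.08 ± 0.20 (adjusted p = 0.475, 0.275 and 0.869) there by the authors' deposited tables. Abcb1a was at -0.31 ± 0.31, 0.37 ± 0.28 and 0.17 ± 0.23, and Abcb1b at -0.43 ± 0.23, 0.48 ± 0.22 and 0.19 ± 0.24, with adjusted p-values from 0.101 to 0.709 in the authors' deposited tables. Of the 50-base windows of Abcb1a, 17.6% occur in another gene, mostly Abcb1b, so reads of the pair can be split between them.

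Of the carnitine carriers and their relatives, Slc22a5 and Slc22a4 fell. Slc22a5 (OCTN2), which reclaims carnitine from the urine, was 4.66-fold lower at 3 months and had lower levels in all 3 comparisons: -2.22 ± 0.30 (SE, adjusted p = 6.01e-13, mean 6416) in 3-month males, -0.59 ± 0.12 (adjusted p = 3.87e-05) in 3-week females and -0.80 ± 0.16 (adjusted p = 1.38e-05) in 3-week males, in the authors' deposited tables. Slc22a4 (OCTN1), the ergothioneine carrier, fell at 3 months, at -2.18 ± 0.24 (adjusted p = 3.11e-19), and in 3-week males, at -1.06 ± 0.24 (adjusted p = 0.000141), and was at -0.47 ± 0.32 (outlier) in 3-week females by the authors' deposited tables. Slc22a21, which lies between them on chromosome 11 and carries carnitine in the mouse, was at 0.44 ± 0.48, -0.05 ± 0.28 and 0.37 ± 0.28 (adjusted p = 0.443, 0.927 and 0.431) in the authors' deposited tables of 3-month males, 3-week females and 3-week males. Slc22a5 and Slc22a21 share 26.1% of the 50-base windows of Slc22a5, so some reads may be exchanged between these neighbours.

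Slc22a12 (URAT1), the urate exchanger of the brush border, was the most abundant of these genes per kilobase of exon. With the mean normalised count scaled to a table total of 1e6 (CPM) and divided by exon length, its level was 833 CPM per kilobase in the table of 3-month males, 264 in that of 3-week females and 261 in that of 3-week males, the highest of the 58 genes in each. It fell at 3 weeks, at -0.97 ± 0.24 (SE, adjusted p = 0.00052) in females and -1.64 ± 0.19 (adjusted p = 1.28e-16, 3.12-fold) in males, and was at -2.47 ± 0.51 (outlier, mean 35460) in 3-month males, in the authors' deposited tables. Slc22a13 (OAT10), an exchanger of nicotinate and urate, fell in 3-week males, at -1.11 ± 0.23 (adjusted p = 4.62e-05), and was at -0.54 ± 0.25 (adjusted p = 0.123) in 3-week females and -1.84 ± 0.56 (outlier) in 3-month males by the authors' deposited tables. The pseudogene Slc22a13b-ps beside it contains 36.0% of its 50-base windows, so this count is uncertain. Slc22a13b-ps was at -0.21 ± 0.41 (adjusted p = 0.78) in 3-week females and 0.01 ± 0.43 (adjusted p = 0.991) in 3-week males, in the authors' deposited tables. Slc22a22 (OAT-PG), a prostaglandin carrier of the mouse, was at -2.17 ± 0.69 (outlier), 1.16 ± 0.38 (outlier) and 0.07 ± 0.17 (adjusted p = 0.859) in the authors' deposited tables of 3-month males, 3-week females and 3-week males.

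Of the other Slc22a genes outside the chromosome 19 run, most that passed were lower. Slc22a18, an imprinted cation carrier gene, fell in 3-week females, at -0.71 ± 0.16 (SE, adjusted p = 0.000228), and 3-week males, at -0.86 ± 0.15 (adjusted p = 4.97e-07), and was at -2.02 ± 0.47 (outlier) at 3 months, in the authors' deposited tables. Slc22a23, whose substrates are unknown, fell in 3-month males, at -0.99 ± 0.15 (adjusted p = 3.36e-10), and in 3-week males, at -0.60 ± 0.17 (adjusted p = 0.0044, and 0.064 under total-count scaling), in the authors' deposited tables, against -0.25 ± 0.24 (adjusted p = 0.517) in 3-week females. Slc22a17, a receptor for lipocalin-2, fell in 3-week females, at -0.55 ± 0.13 (adjusted p = 0.000657), and was at -0.07 ± 0.09 (adjusted p = 0.525) in 3-month males and -0.37 ± 0.21 (adjusted p = 0.229) in 3-week males by the authors' deposited tables. Under total-count scaling Slc22a17 was at 0.43 at 3 months (adjusted p = 1.48e-06). Slc22a15, a carrier of zwitterions, was higher at 3 months, at 2.28 ± 0.27 (adjusted p = 6.46e-16, mean 80.2), in the authors' deposited table, and was at 0.17 ± 0.20 (adjusted p = 0.619) in 3-week females and 0.59 ± 0.22 (adjusted p = 0.0505) in 3-week males. Slc22a14, with a mean of 11.9 at 3 months, was at -0.34 ± 0.45, -0.33 ± 0.34 and -0.27 ± 0.42 (adjusted p = 0.538, 0.553 and 0.755) in the authors' deposited tables of 3-month males, 3-week females and 3-week males.

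Among the ABCC pumps Abcc3 rose and the others were mixed. Abcc3 (MRP3), which exports glucuronide and bile acid conjugates to the blood side, was 42.1-fold higher at 3 months: the authors' deposited table gave 5.40 ± 0.41 (SE, adjusted p = 1.01e-37, mean 986), and 39 of 12828 tested genes had a higher value. In 3-week males it was lower, at -0.46 ± 0.17 (adjusted p = 0.0436, and 0.264 under total-count scaling), and in 3-week females it was at -0.51 ± 0.31 (outlier), in the authors' deposited tables. Abcc1 (MRP1), a pump of glutathione conjugates, was higher at 3 months, at 0.66 ± 0.19 (adjusted p = 0.00166), lower in 3-week females, at -0.44 ± 0.16 (adjusted p = 0.0426, and 0.198 under total-count scaling), and at -0.26 ± 0.15 (adjusted p = 0.266) in 3-week males, in the authors' deposited tables. Abcc10 (MRP7) fell at 3 months, at -1.50 ± 0.16 (adjusted p = 1.56e-18), and in 3-week females, at -0.46 ± 0.15 (adjusted p = 0.018, and 0.124 under total-count scaling), and was at -0.48 ± 0.24 (adjusted p = 0.177) in 3-week males by the authors' deposited tables.

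Abcc6 (MRP6), whose loss causes ectopic calcification, fell at 3 weeks, at -0.87 ± 0.20 (SE, adjusted p = 0.000172) in females and -0.84 ± 0.20 (adjusted p = 0.000463) in males, and was at -2.33 ± 0.52 (outlier) in 3-month males, in the authors' deposited tables. Abcc5 (MRP5), a cyclic nucleotide pump, was at -0.29 ± 0.11 (adjusted p = 0.0122) at 3 months in the authors' deposited table and at 0.20 under total-count scaling, so its direction depends on the scaling. At 3 weeks it was at 0.00 ± 0.10 (adjusted p = 0.992) in females and -0.01 ± 0.16 (adjusted p = 0.977) in males, by the authors' deposited tables. The receptor subunits differed: Abcc8 was 13.7-fold higher at 3 months, at 3.77 ± 0.59 (adjusted p = 9.21e-10) with a mean of only 19.8, while Abcc9 was at -1.21 ± 0.45 (outlier) there and fell in 3-week females, at -0.82 ± 0.17 (adjusted p = 3.26e-05), in the authors' deposited tables. In 3-week males Abcc9 was at -0.49 ± 0.21 (adjusted p = 0.0897), in the authors' deposited table. Abcc8 was at -0.59 ± 0.42 (adjusted p = 0.366) in 3-week females and 0.11 ± 0.42 (adjusted p = 0.915) in 3-week males, in the authors' deposited tables. Abcb10 fell at 3 months, at -0.59 ± 0.12 (adjusted p = 6.34e-06) by the authors' deposited table, and was at -0.09 (adjusted p = 0.506) under total-count scaling. The authors' deposited tables had it at -0.21 ± 0.12 (adjusted p = 0.226) in 3-week females and -0.30 ± 0.17 (adjusted p = 0.265) in 3-week males.

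In the Slco family, 5 of 15 genes were tested at 3 months, and 3 rose and 1 fell. Over all tested genes 29.8% were higher there and 27.8% lower. Another 4 Slco genes were outliers, 3 of them below 0. Slco4a1, a thyroid hormone carrier, was 4.92-fold higher, at 2.30 ± 0.35 (SE, adjusted p = 5.04e-10), Slco1a4, an anion carrier known from liver and brain, was at 1.58 ± 0.39 (adjusted p = 0.000181), and Slco2a1, the prostaglandin transporter, was at 0.79 ± 0.12 (adjusted p = 9.39e-10) in the authors' deposited table of 3-month males. Slco3a1 fell there, at -1.38 ± 0.28 (adjusted p = 2.37e-06), by the authors' deposited table. None of these but Slco4a1 was called at 3 weeks: Slco1a4 was at -0.46 ± 0.42 (outlier) in females and 0.15 ± 0.30 (adjusted p = 0.817) in males, in the authors' deposited tables. Slco2a1 was at -0.11 ± 0.16 (adjusted p = 0.711) and 0.07 ± 0.16 (adjusted p = 0.855), and Slco3a1 at -0.02 ± 0.18 (adjusted p = 0.959) and 0.07 ± 0.16 (adjusted p = 0.848), in 3-week females and 3-week males of the authors' deposited tables. At 3 weeks Slco4a1 was lower in females, at -1.18 ± 0.19 (adjusted p = 5.43e-08), and at -0.52 ± 0.23 (adjusted p = 0.117) in males, in the authors' deposited tables. Slco1a6, a relative of Slco1a1, fell in 3-week males, at -0.64 ± 0.23 (adjusted p = 0.0379, and 0.16 under total-count scaling), and was at 0.11 ± 0.33 (outlier) in 3-week females and -1.92 ± 0.57 (outlier) in 3-month males by the authors' deposited tables. Slco2b1, a carrier of steroid sulfates, was at 0.88 ± 0.40 at 3 months, the single transporter outlier above 0 in the authors' deposited table. It was at -0.61 ± 0.28 (outlier) in 3-week females and -0.04 ± 0.21 (adjusted p = 0.943) in 3-week males, in the authors' deposited tables. Slco1c1, a thyroxine carrier, was at 1.28 ± 0.67, -0.08 ± 0.42 and 0.12 ± 0.43 (adjusted p = 0.0909, 0.93 and 0.904) in the authors' deposited tables of 3-month males, 3-week females and 3-week males.

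Slco1a1 (OATP1A1, chromosome 6 from 141907282 to 141946962), a carrier of steroid and bile acid conjugates that is known to be higher in male than in female mouse kidney, had the lowest fold change of all 58 genes. In the authors' deposited table of 3-month males it was at -5.80 ± 0.67 (SE, outlier, mean 3893), which is 55.6-fold lower. With outliers given the p of their own fold change and error, it passed at an adjusted p of 1.17e-16. Whether that error holds for an outlier was not tested. At 3 weeks the transcript was nearly absent, with means of 1.86 in females and 3.06 in males in the authors' deposited tables, both with the status Low. Slco1a4, its direct neighbour, thus rose where Slco1a1 was far lower.

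A run of 8 neighbouring Slc22a genes lies on chromosome 19 from 7673061 to 8628299: Slc22a19, Slc22a26, Slc22a27, Slc22a28, Slc22a29, Slc22a30, Slc22a8 and Slc22a6. Slc22a28 and Slc22a30 are near copies, with 53.9% of the 50-base windows of Slc22a28 occurring in other genes, mostly in Slc22a30, and the 250 bases before their starts are identical at 238 of 250 positions (95.2%). Slc22a29 is the next nearest, at 73.2% to Slc22a28. The sequences before the starts are printed 5′ to 3′ on the minus strand (RefSeq, GRCm38.p6), since the pair and Slc22a29 recur below. Capitals mark the bases of Slc22a28 and Slc22a30 that the alignment of these left unmatched, 12 in each. Slc22a28 is at chr19:8131983-8132232, Slc22a29 at chr19:8218901-8219150 and Slc22a30 at chr19:8405106-8405355.
Slc22a28: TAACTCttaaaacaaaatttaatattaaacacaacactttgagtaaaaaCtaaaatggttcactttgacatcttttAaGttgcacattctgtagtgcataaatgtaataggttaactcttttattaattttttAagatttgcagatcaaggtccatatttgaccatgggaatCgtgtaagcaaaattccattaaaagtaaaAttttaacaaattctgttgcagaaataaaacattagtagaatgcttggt
Slc22a30: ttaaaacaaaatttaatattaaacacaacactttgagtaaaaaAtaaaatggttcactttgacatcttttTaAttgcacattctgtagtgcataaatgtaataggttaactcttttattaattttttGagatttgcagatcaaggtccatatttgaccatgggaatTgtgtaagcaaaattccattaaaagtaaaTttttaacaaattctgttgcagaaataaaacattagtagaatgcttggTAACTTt
Slc22a29: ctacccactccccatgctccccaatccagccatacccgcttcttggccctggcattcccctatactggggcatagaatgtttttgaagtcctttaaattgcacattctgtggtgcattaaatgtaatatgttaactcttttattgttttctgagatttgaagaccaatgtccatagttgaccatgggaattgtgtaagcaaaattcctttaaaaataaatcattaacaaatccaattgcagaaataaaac

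At 3 months all 8 genes of the run had fold changes below 0, from -3.14 to -1.79, though only Slc22a26 and Slc22a29 carry an adjusted p. Slc22a27 is counted there with the status Low, at -2.15 ± 0.76 (SE) and a mean of 3.36. Slc22a26 fell 8.79-fold, at -3.14 ± 0.48 (SE, adjusted p = 5.96e-10, mean 208), and Slc22a29 fell 4.09-fold, at -2.03 ± 0.47 (adjusted p = 5.43e-05, mean 51.9), in the authors' deposited table of 3-month males. Slc22a19 (OAT5), an exchanger of sulfate conjugates at the brush border, was at -1.79 ± 0.56, Slc22a28 at -1.86 ± 0.72 and Slc22a30 at -2.90 ± 0.70 in the authors' deposited table, all 3 as outliers.

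At 3 weeks the fold changes of the run had both signs, but no gene of it passed as higher in the authors' deposited tables. Slc22a27 fell 3.89-fold in females, at -1.96 ± 0.26 (SE, adjusted p = 5e-12), and 6.16-fold in males, at -2.62 ± 0.28 (adjusted p = 1e-18), the lowest values of any tested transporter gene in the authors' deposited tables of that age. Slc22a29 fell in 3-week males, at -0.78 ± 0.25 (adjusted p = 0.0164, and 0.0777 under total-count scaling), and was at 0.10 ± 0.27 (outlier) in females, in the authors' deposited tables. Slc22a28 was at 1.38 ± 0.36 (outlier) in females and 0.70 ± 0.33 (adjusted p = 0.128) in males, and Slc22a30 at 1.20 ± 0.39 and 0.32 ± 0.33 (both outliers), in the authors' deposited tables. Slc22a19 was at 0.42 ± 0.32 (outlier) in females and 0.45 ± 0.20 (adjusted p = 0.116) in males, and Slc22a26 at 0.68 ± 0.38 (adjusted p = 0.226) in females, where its mean was 10.0, in the authors' deposited tables. Reads of Slc22a27 and Slc22a29 are also hard to part, since 25.3% of the 50-base windows of Slc22a27 occur in Slc22a29.

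**Figure D2:**
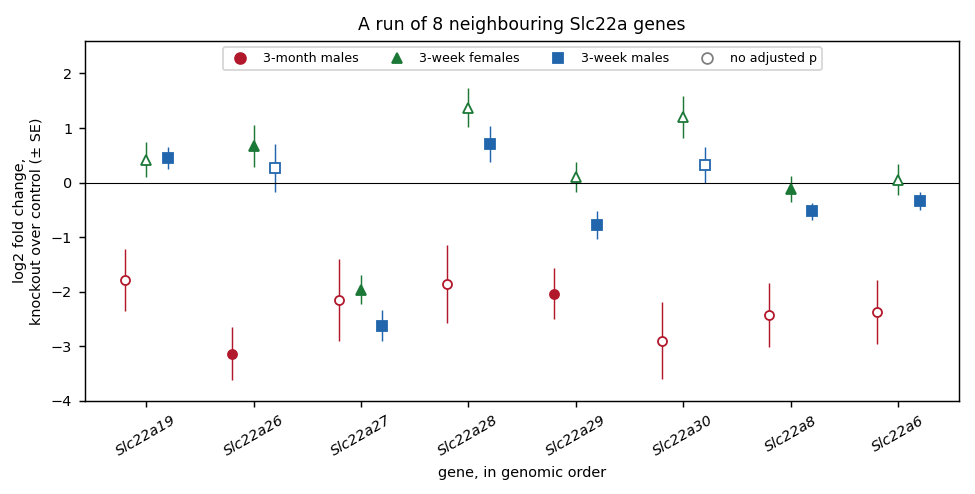
Log2 fold change, knockout over control, with the authors' standard error (bars) for the 8 neighbouring Slc22a genes of chromosome 19 in genomic order, in 3-month males (circles), 3-week females (triangles) and 3-week males (squares); open symbols have no adjusted p. The 3-month values lie between -3.14 and -1.79, and at 3 weeks Slc22a27 lies lowest while Slc22a28 reaches 1.38 in females.

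The mean over both genotypes also differed between the tables, which were normalised separately, so these levels are set side by side as shares of each table's total only. Slco1a1 had 207 CPM in 3-month males, against 0.0548 in 3-week females and 0.0644 in 3-week males. Slc22a26 had 11.1 CPM in 3-month males, against 0.295 and 0.19 at 3 weeks, and Slc22a30 and Slc22a28 had 84.4 and 64.0 CPM in 3-month males, against 7.46 and 6.22 in 3-week males. Slc22a7 had 109 CPM in 3-month males, against 12.1 and 18.9 in 3-week females and males. These carriers were scarce at 3 weeks in both sexes.

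Other genes had the reverse order. Slc22a29 had 2.76 CPM in 3-month males, against 75.5 in 3-week females and 66.3 in 3-week males, and Slc22a27 had 0.179, against 5.78 and 3.89. Abcc3 had 52.4 CPM in 3-month males, against 103 and 104, and Slco4a1 had 15.6, against 40.5 and 40.2. The 3-month means hold knockout kidneys in which these genes changed, and each age has its own table, so age, genotype and table cannot be told apart in these levels.

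**Figure D3:**
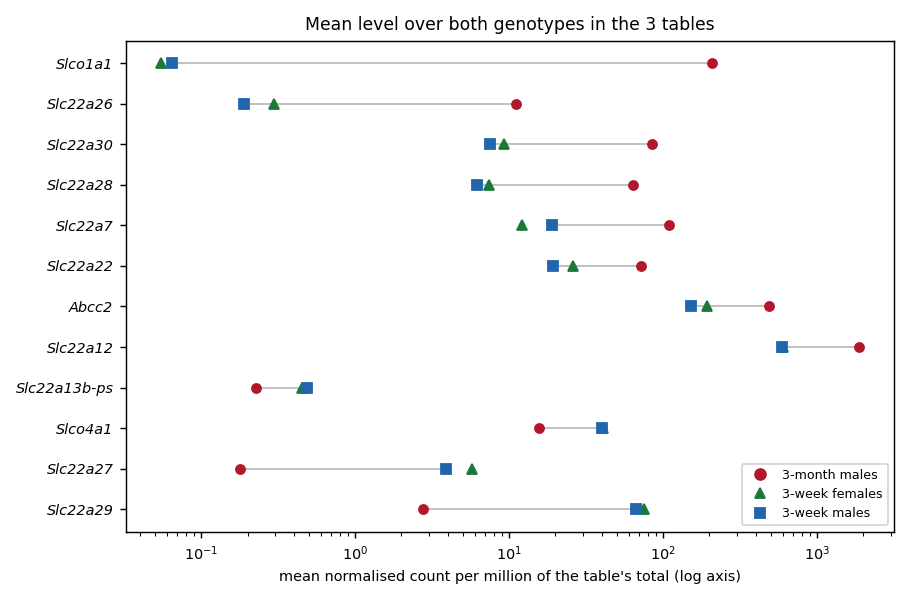
Mean normalised count of both genotypes as a share of each table's total (CPM, log axis) for the transporter genes whose share in 3-month males was at least 3 times, or at most 0.5 times, that in 3-week males; circles are 3-month males, triangles 3-week females and squares 3-week males. Slco1a1 spans 0.0548 to 207 CPM, and Slc22a29 and Slc22a27 run the other way.

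The genotype effect was compared between the ages in males by the difference of the log2 fold changes over the root of their summed squared standard errors, with Benjamini-Hochberg adjustment over the 12355 genes tested in both tables. Of the 25 transporter genes tested at both ages, 13 had a different effect, 7 higher and 6 lower at 3 months, where 27.7% of all genes did, 16.8% higher and 10.9% lower. Abcc3 had the largest difference, 5.85 ± 0.44 (SE, adjusted p = 8.02e-36), followed by Abcc8 at 3.66 ± 0.72 (adjusted p = 7.84e-06) and Slco4a1 at 2.82 ± 0.42 (adjusted p = 1.93e-09). On the lower side stood Slc22a7 at -3.36 ± 0.32 (adjusted p = 8.43e-23), Abcg2 at -1.62 ± 0.32 (adjusted p = 1e-05) and Slco3a1 at -1.45 ± 0.32 (adjusted p = 7.27e-05). For Slc22a5 and Slc22a4, the carriers of carnitine and ergothioneine, the differences were -1.42 ± 0.34 (adjusted p = 0.000294) and -1.12 ± 0.33 (adjusted p = 0.00546). The sizes across tables carry a limit: the largest standard error was 1.10 at 3 months and 0.44 in 3-week males. In 3-week males Slco1b2 had an error of only 0.34 at a mean of 2.16, and Abcc12 one of 0.33 at 2.14. Errors so small at so few reads mean that fold changes were moderated towards 0, though the sources used here do not say so. The unlike ceilings go with unlike moderation in the 2 tables. The part of this in the differences between the ages was not tested.

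**Figure D4:**
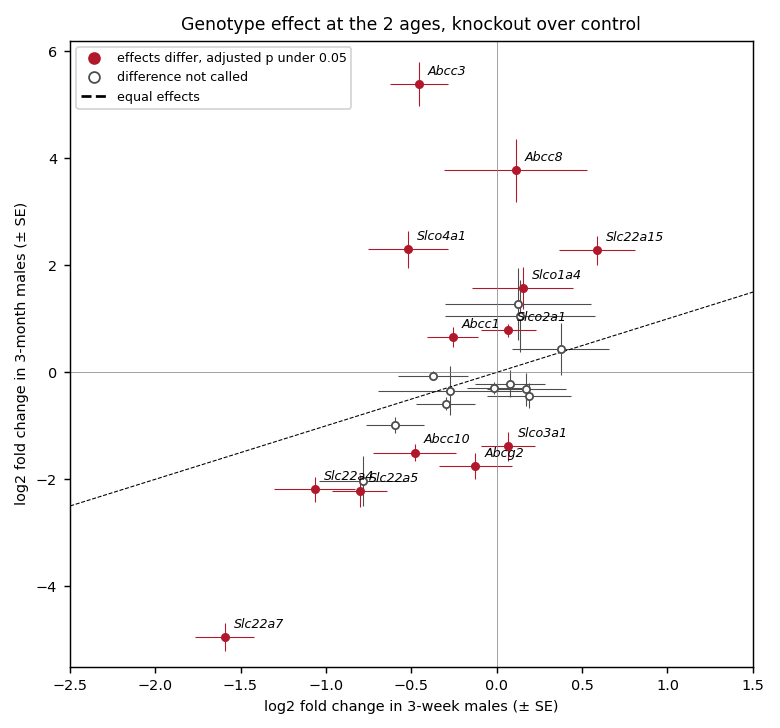
Log2 fold change, knockout over control, in 3-month males (vertical axis) against 3-week males (horizontal axis) for the 25 transporter genes tested at both ages, with standard errors (bars) and the line of equal effects; filled, named points are the 13 with a different effect. Abcc3 lies at 5.40 and -0.46, and Slc22a7 at -4.95 and -1.59.

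Between the sexes at 3 weeks no transporter gene had a different genotype effect by the same test: 0 of 32 passed, where 0% of 13737 genes did. At an unadjusted p under 0.05 there were 3 of the 32 and 237 of all. The 237 are a smaller share of the 13737 than the 0.05 expected where no effect differs. The test was thus strict with these standard errors, and the lack of calls does not show equal effects. The 3 transporter genes under that unadjusted p are given next. These were Slc22a12, at 0.67 ± 0.30 (SE) for females minus males, with a 95% interval from 0.08 to 1.26, Slco4a1 at -0.66 ± 0.30, from -1.26 to -0.06, and Slco4c1 at 0.73 ± 0.37. The interval of the difference ran from -0.61 to 0.76 for Slc22a7 and from -0.19 to 0.61 for Slc22a5, so differences of that size were not detectable. Abcc6, Slc22a12, Slc22a18, Slc22a27, Slc22a5 and Slc22a7 were called in both 3-week tables and were lower in both.

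Genes around the transporters are given from lists chosen with earlier results known. A list of 24 organic solute carriers holds Abcb11, which is also among the transporter genes above. Of the 24, 9 were tested at 3 months, 1 higher and 5 lower, and all 11 outliers were below 0. The lactate carrier Slc5a12, also among the proximal tubule markers, was at -3.13 ± 0.31 (SE) in the authors' deposited table. Slc2a9, a urate carrier, was at -1.13 ± 0.22 there. Of all tested genes 57.5% passed in that table, so 6 of 9 is near the share over all genes. At 3 weeks 0 were higher and 3 lower of 13 tested in females, and 0 higher and 5 lower of 21 tested in males, where 10.4% of all genes were lower in females and 8.52% in males. Of 15 regulators and scaffolds of these carriers, Esrrg included, 2 were higher and 7 lower of 10 tested at 3 months. Over all genes 29.8% were higher and 27.8% lower there. The other 5 of the list were outliers below 0. The fatty acid sensor Ppara was at -3.01 ± 0.22, the bile acid receptor Nr1h4 at -2.37 ± 0.17, the xenobiotic sensor Ahr at 2.75 ± 0.31 and Nfe2l2, the oxidative stress factor NRF2, at 0.87 ± 0.15 in the authors' deposited table of 3-month males. In 3-week females 3 were higher and 5 lower of 13, and in 3-week males 2 higher and 6 lower of 14, where 18.7% and 17.3% of all genes passed in either direction. Esrrg itself is counted among the higher ones in both.

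Genes known to be raised by androgen in mouse kidney were also lower at 3 months, in a list that shares a gene with the proximal tubule markers. Of 7, 3 were tested at 3 months and 3 were lower, with Kap at -2.94 ± 0.30, Cyp4b1 at -4.26 ± 0.28 and Cyp7b1 at -3.20 ± 0.34 (SE) in the authors' deposited table, and the other 4 were outliers below 0. Over all genes 27.8% of those tested were lower there. In 3-week females 2 were higher and 3 lower of 6 tested, and in 3-week males 2 higher and 3 lower of 5, beside the 18.7% and 17.3% of all genes that passed. With outliers included, the list ran from -1.70 to 4.65 in 3-week females and from -1.87 to 4.25 in 3-week males. The part of androgen action in Slco1a1 and the others was not tested.

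Markers of cells other than the proximal tubule also differed at 3 months, beside every value above. The 4 urothelium markers were between 6.87 and 8.39 (all outliers), the 3 fat markers between 3.39 and 4.68, the 4 injured tubule markers between 4.05 and 7.73, and the 3 measured macrophage and leukocyte markers between 1.70 and 3.88, with 3 of 3 higher, in the authors' deposited table of 3-month males. At 3 weeks the same tables put injured tubule markers between 1.04 and 2.97 in females and between 1.53 and 4.08 in males, urothelium markers between 0.26 and 0.46 in females and between 1.58 and 2.01 in males, and fat markers between -0.67 and -0.09 in females and between -0.08 and 0.11 in males. Summed over the 4 urothelium markers, the means were 639 CPM at 3 months, 92.3 in 3-week females and 110 in 3-week males. Their part in the rise of Abcc3, Slco4a1 and Slc22a15 was not tested.

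**Figure D5:**
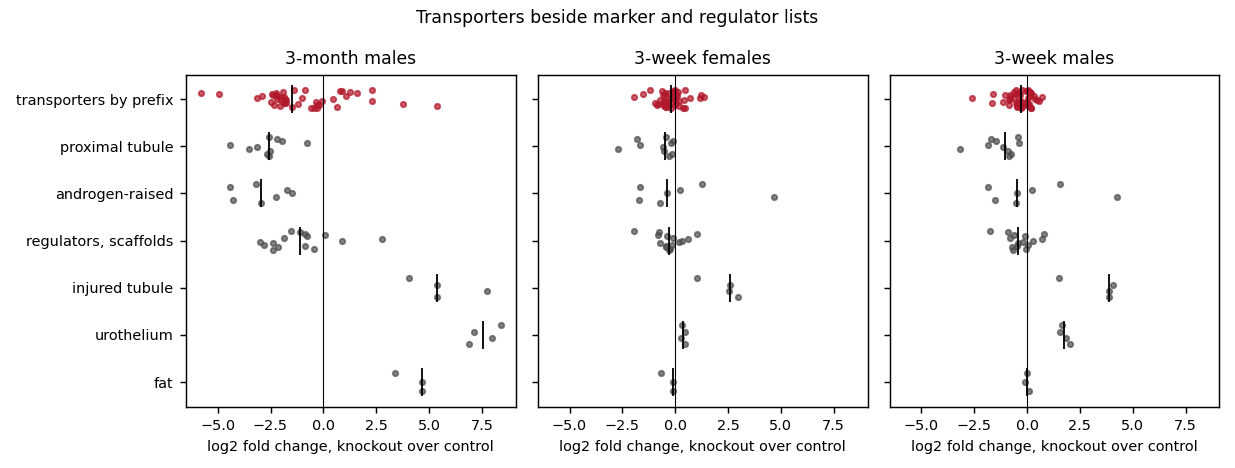
Log2 fold change, knockout over control, of the transporter genes (top row) and of marker and regulator lists in 3-month males, 3-week females and 3-week males from left to right; each point is a gene with a mean over 10, outliers included, and the vertical bar is the list's median. At 3 months the transporter median is -1.50 and the proximal tubule median -2.59, while urothelium, injured tubule and fat lie above 3.

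The other 12 transporter genes had no adjusted p-value in any table. Slco1a1 and Slc22a30 are described above, and Abcb11, Abcc12, Slc22a16, Slc22a20, Slco1a5, Slco1b2, Slco5a1, Slco6b1, Slco6c1 and Slco6d1 had the status Low in all 3. Slco6b1, Slco6c1 and Slco6d1 were listed at a mean of 0 in each. A further 17 genes were tested and passed in no table, among them Slc22a6, Slc47a1 and Abcc2, which were outliers or short of the threshold in each table.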

How the data were processed

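Kidney RNA of 15 libraries was poly(A)-selected and made into stranded libraries (TruSeq Stranded mRNA), per the labels' protocols. The submitters' processing notes name mm10, STAR, HOMER and DESeq2 without versions. What the authors deposited is 3 tables, 1 for each comparison of the genotypes. Per the file headers, their columns are the mean normalised count (a signal over the libraries), the log2 fold change, its standard error, the p-value before and after adjustment, and a deposited status (OK, Low or Outlier), whose rule was not given in the sources used here. In 100% of genes the deposited p-value matched, within 1%, a 2-sided normal test of fold change against standard error, and OK began at a mean of 10.0. With no counts per library, the planned edgeR models gave way to the authors' deposited DESeq2 values, called at an adjusted p under 0.05; p-values reflect only how far the libraries used, from littermates, vary. Differences between comparisons were tested as described in the report. The simulated data used to check the calls drew their noise from the deposited standard errors of 1 table at a time. That check therefore cannot show whether these errors hold, or how unlike errors of 2 tables act on a difference.

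Groups follow the sample titles. Symbols turned into dates (27) were left out. Coordinates and exon lengths are from GENCODE M21 on GRCm38, the build called mm10, and promoters from RefSeq. Shares of 50-base windows count transcript windows found in another gene. Proteins were not aligned. The values of 1 transporter gene and 1 regulator are not reported here, though both are counted. The rule for named genes took every transporter gene with an adjusted p-value in at least 1 table, Esrrg, and up to 6 genes per list with the smallest p; the rest are given by name. Members, lists and tests were chosen with earlier results of these data known. Other lists (thick ascending limb, distal convoluted tubule, principal cell, intercalated cell, podocyte, endothelium, fibroblast, liver, adrenal) are given under other observations. Alternatives were other thresholds, outliers kept, low means kept, total-count scaling, median centring and, chosen after seeing the data, total-count scaling of the differences. Python 3.11.15, numpy 2.4.6, scipy 1.17.1, pandas 2.3.3 and matplotlib 3.10.9 were used.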

Additional observations from a re-analysis of the deposited data

Results flagged for a closer look

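The effect of the knockout differed between 3 months and 3 weeks in males for 13 transporter genes by the test of the difference itself. On the log2 scale (3 months minus 3 weeks) the difference was 5.85 for Abcc3, 3.66 for Abcc8, 2.82 for Slco4a1, 1.70 for Slc22a15, 1.43 for Slco1a4, 0.92 for Abcc1 and 0.72 for Slco2a1. It was -3.36 for Slc22a7, -1.62 for Abcg2, -1.45 for Slco3a1, -1.42 for Slc22a5, -1.12 for Slc22a4 and -1.02 for Abcc10. For Abcc3, Abcc1, Slco4a1 and Slco3a1 the fold changes at the 2 ages have opposite signs, though of their 3-week values only that of Abcc3 passed the test. The ages stand in separate tables whose standard errors have different ceilings, and the part of this in the differences was not tested.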

How the results depend on the processing

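No paired analysis was possible because the replicate numbers are not shared between groups and the tables hold no value per library; for the same lack, leaving out replicates, edgeR, another DESeq2 fit, TMM, a low-count filter and interaction fits were not run. Counts of called transporter genes depended on how outliers were treated. In 3-month males 18 became 38 (29 lower) with low means and outliers kept and 36 (28 lower) with outliers kept, while over all genes 7382 called (3563 lower) became 8895 (4113 lower) and 8478 (4119 lower). A log2 fold change of at least 1 left 13 there, 3 (3 lower) in 3-week females and 5 (5 lower) in 3-week males, beside 3669, 731 and 1029 of all genes. Genes called higher at 3 weeks went from 0 to 3 in females with low means and outliers kept, to 3 with outliers kept and to 2 under total-count scaling, and in males to 1 with outliers kept, 3 under total-count scaling and 1 with median centring, with 9 lower under total-count scaling. Over all genes those called higher numbered 1150, 1255 and 2446 in females, against 1173, and 1400, 2129 and 1308 in males, against 1291, with 701 lower under total-count scaling, against 1249. With low means and outliers kept, Abcc1 in 3-week females (adjusted p = 0.0520) and Abcc3 in 3-week males (adjusted p = 0.0524) were no longer called, and under total-count scaling Slc22a15 was called in 3-week males (adjusted p = 0.00574). Differences between the ages numbered 23 with outliers kept, against 13, and 4406 over all genes, against 3418. The ERR element matched 4 genes in the short spelling, against 1. Values that changed sign did so under total-count scaling: at 3 months Abcb1a 0.18, Abcb1b 0.061, Abcc4 0.28, Abcc5 0.20, Slc22a14 0.16 and Slc22a17 0.43; in 3-week females Slc22a21 0.10, Slc22a3 0.083, Slc22a8 0.040, Slco1c1 0.073, Slco2a1 0.042 and Slco3a1 0.13; in 3-week males Abcc5 0.16, Abcg2 0.052 and Slco2b1 0.14; in the sex difference Abcc10 -0.0083 and Abcc5 -0.013; in the age difference Abcb10 0.025, Abcc4 0.027, Abcc5 0.039 and Slc22a14 0.25. Median centring turned Abcc5 in 3-week females to -0.0065. Over all results per gene, 777 of the alternatives left direction and call as they were.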

Other observations

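Markers of further cells are given beside the carriers. In the authors' deposited table of 3-month males the lists had medians of -0.57 (thick ascending limb), -2.81 (distal convoluted tubule), 0.77 (principal cell), -0.95 (intercalated cell), -0.76 (podocyte), 0.60 (endothelium), 2.76 (fibroblast) and -1.54 (liver), with 1 adrenal marker over the low limit at 0.21. In 3-week females the same medians were -0.38, -1.85, 0.52, -1.06, -0.51, -0.67, 0.52 and -0.34, with the adrenal marker at 0.08, and in 3-week males -0.70, -2.30, 0.92, -0.96, -0.52, -0.36, 0.65 and 0.45, with the adrenal marker at -0.24, in the authors' deposited tables. Each list has 3 genes, and the liver list 4.

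With outliers given the p of their own fold change and error, 18 of the 19 transporter outliers at 3 months passed. Slco4c1 was the exception (adjusted p = 0.183). Over all genes the calls then went from 7382 to 8478, in a table with 1516 outlier symbols. This net change does not give the share of all outliers that passed, so no such share is set beside the 18 of 19. In 3-week females Slc22a28 (adjusted p = 0.00159), Slc22a30 (adjusted p = 0.0152) and Slc22a22 (adjusted p = 0.0159) passed as higher. Over all genes those called higher there went from 1173 to 1255. Whether the standard errors hold for outliers was not tested. The deposited status removes these values from the test.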
